A study of Mus musculus with 6 samples.

Results

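Genes of glycolysis and genes induced by low oxygen were followed in cultured mouse neurons with and without Tlr7, which encodes an endosomal receptor for single-stranded RNA. The group was defined by name and held 32 of the 25814 genes in the deposited gene table. These members, and the further lists below, were chosen with earlier results of these data known. Counts of members beside shares of all genes are therefore descriptive and not independent evidence. The group comprised 4 transporters of glucose and lactate, 17 glycolytic enzymes, 2 regulators of glycolysis, 3 genes of the hypoxia-inducible factor (HIF) pathway and 6 HIF targets outside glycolysis. By name, 31 members were found. Aldoa is listed there as Aldoa_1 and was matched by its Ensembl identifier. Libraries were made with a stranded mRNA kit from total RNA of primary neurons, a mixture from cortex and hippocampus, of strain background C57BL/6, collected at day 18 in vitro. There were 3 wild-type (WT) and 3 Tlr7-/- libraries. Cells of both genotypes grew in Neurobasal and DMEM medium with B27 supplement, and no other allele, agent or time point is named in the labels. Whether replicates stem from separate cultures or animals is not stated in the labels, and the p-values therefore reflect only how much these libraries vary, which may be technical. In a bulk culture, fewer cells of a type and less RNA per cell cannot be told apart.

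Glycolysis splits glucose into pyruvate in the cytosol, and lactate dehydrogenase and the monocarboxylate transporters then interconvert pyruvate with lactate and carry both across the membrane. In brain, astrocytes are known for strong aerobic glycolysis and lactate release, while neurons are known to take up much of their glucose through Glut3, encoded by Slc2a3. The transcription factor HIF-1 joins Hif1a to a constant partner subunit. In normal oxygen, prolyl hydroxylases such as those encoded by Egln1 and Egln3 mark HIF-1 alpha for destruction through the Vhl ubiquitin ligase. When oxygen falls, HIF-1 binds hypoxia response elements, whose core is RCGTG with R standing for A or G, near glycolytic genes, glucose transporters, Vegfa and the prolyl hydroxylase genes themselves. Hif1a is regulated mainly at the level of its protein, which these data do not measure.

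Promoter windows of 300 bases were taken from RefSeq (GRCm38.p6), and 31 of the 32 members have at least 1 of them, 45 in all. ACGTG or GCGTG, read on either strand, occurs in the promoters of 28 of these 31 genes (90.3%), against 46.7% of 27025 genes with a window. A gene counts here if any of its windows holds a match. Counted by window, the shares are 80.0% of 45 and 43.8% of 32851. The list was drawn up from glycolytic and hypoxia-inducible genes, so these shares describe that choice and are no independent evidence about these cells. ACGTG alone occurs in 22 of the 31 (71.0%), against 21.8% of all genes, and the 3 genes with no match are Gpi1, Eno2 and Tpi1. Member promoters are also richer in G and C, with a median of 62.3% against 52.7%, and the part of that richness in the motif share was not tested. The following lines show the 150 bases before the start site of 6 of the members discussed below. They run 5′ to 3′ on the gene's strand, with every ACGTG and every GCGTG, on either strand, in capitals. A palindromic CACGTG is one match on each strand. None of these 6 stretches overlaps an exon of GENCODE M21, although those of Pfkl, Gapdh and Ldha lie within longer gene models there, since the RefSeq start is further inside.
Hk2, chr6:82774455-82774604, minus strand: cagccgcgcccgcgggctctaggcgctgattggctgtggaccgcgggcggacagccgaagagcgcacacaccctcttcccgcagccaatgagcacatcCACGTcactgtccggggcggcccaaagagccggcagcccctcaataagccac
Pfkl, chr10:78009808-78009957, minus strand: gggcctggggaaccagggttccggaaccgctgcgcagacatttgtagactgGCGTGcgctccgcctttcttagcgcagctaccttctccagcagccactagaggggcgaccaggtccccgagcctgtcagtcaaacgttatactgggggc
Gapdh, chr6:125165774-125165923, minus strand: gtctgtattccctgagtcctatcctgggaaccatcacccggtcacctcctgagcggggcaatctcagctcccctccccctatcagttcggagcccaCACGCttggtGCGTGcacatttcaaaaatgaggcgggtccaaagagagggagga
Pgk1, chrX:106186950-106187099, plus strand: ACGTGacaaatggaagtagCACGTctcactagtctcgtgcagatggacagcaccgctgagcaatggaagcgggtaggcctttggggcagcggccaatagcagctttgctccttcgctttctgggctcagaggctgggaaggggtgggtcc
Pgam1, chr19:41911721-41911870, plus strand: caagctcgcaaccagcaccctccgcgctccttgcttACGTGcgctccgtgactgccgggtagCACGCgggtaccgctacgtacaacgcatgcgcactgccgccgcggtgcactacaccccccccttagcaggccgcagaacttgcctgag
Ldha, chr7:46845654-46845803, plus strand: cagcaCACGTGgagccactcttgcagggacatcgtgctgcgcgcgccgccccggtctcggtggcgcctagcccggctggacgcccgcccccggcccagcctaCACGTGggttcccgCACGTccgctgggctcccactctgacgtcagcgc
Ldha holds 5 matches in these 150 bases, Gapdh, Pgk1 and Pgam1 hold 2 each, and Hk2 and Pfkl hold 1 each. Egln3 and Tpi1, which also lay lower in every Tlr7-/- library, hold no match in their 150 bases and are not shown. The 6 stretches therefore do not stand for all members with lower values. Shorter stretches of 30 bases are given for 3 more members whose windows run into annotated exons.
Slc2a1, chr4:119108697-119108726, plus strand: gtcccgccccggACGTGctccccaggcccc
Slc16a3, chr11:120949028-120949057, plus strand: caggcagcggtgACGTGcgcgggggACGTG
Higd1a, chr9:121857849-121857878, minus strand: ccggtctagcctGCGTGCGTGgcgttcgcg
A match says that these letters are present, and not that the site is bound in these cells.

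The libraries held between 23272450 and 25696625 counts assigned to genes, and 13947 genes, including all 32 members, passed the filter on low counts. Levels are given as CPM, the count of a gene scaled to the library total. A member had between 130 and 106736 counts in a library. Tlr7 itself, at 3 to 8 counts in every library of either genotype, was too scarce to check the labels (two-sided exact permutation test of library-scaled counts, p = 0.8, where the smallest p possible is 0.1). Tlr7-/- replicate 1 carries a library name in the style of the WT libraries, and replicates 2 and 3 carry another style whose meaning is not given. In each library, the deviation of every gene from its own mean over all libraries was ranked against transcript GC content and length. Replicates 2 and 3 also stood apart in the rank correlation with GC content (-0.542 and -0.459, against 0.305 to 0.512 in the other 4 libraries). They did so in that with length (0.369 and 0.427, against -0.449 to -0.345 in WT). Because the deviations share a common mean, opposite signs between libraries are partly built in, and the values do not describe gene levels themselves. Counts from the mitochondrial genome differed as well (4.19% and 4.4% in replicates 2 and 3, against 2.6% to 3.14%). Replicate 1 lay between WT and the other Tlr7-/- libraries in the correlation with length (-0.0958). Results are therefore given for all 3 Tlr7-/- libraries and separately for replicate 1 and for replicates 2 and 3 against WT. For replicates 2 and 3 the genotype and the style of name cannot be told apart. Where it matters, a second value is given from a fit in which the dependence of each library on GC content and on transcript length was taken out, called the trend-removed value. For replicate 1 a single library stands on one side, and it was assumed to vary like the others.

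Per unit of transcript length, the members spanned a wide range in WT. Gapdh, the glyceraldehyde-3-phosphate dehydrogenase gene, had the highest deposited RPKM (reads scaled by gene length and library total), 2032 ± 77.7 (SD, n = 3). Aldoa, the ubiquitous aldolase gene, followed at 735 ± 55.4 RPKM. Pgk1 (546 ± 39.8), Pgam1 (541 ± 26.7) and Gpi1 (528 ± 37.5) came next, and the RPKM of these 3 overlapped between WT libraries, so their order is not resolved. The first 11 places in WT were all held by glycolytic enzymes, down to Ldhb at 234 ± 7.19 RPKM, and the highest member outside glycolysis was Bnip3 at 164 ± 9.18 RPKM. At the low end lay Slc16a3 (4.18 ± 0.465 RPKM), Ankrd37 (6.92 ± 0.194 RPKM) and Hk2 (7.35 ± 0.801 RPKM), the latter pair overlapping.

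**Figure D1:**
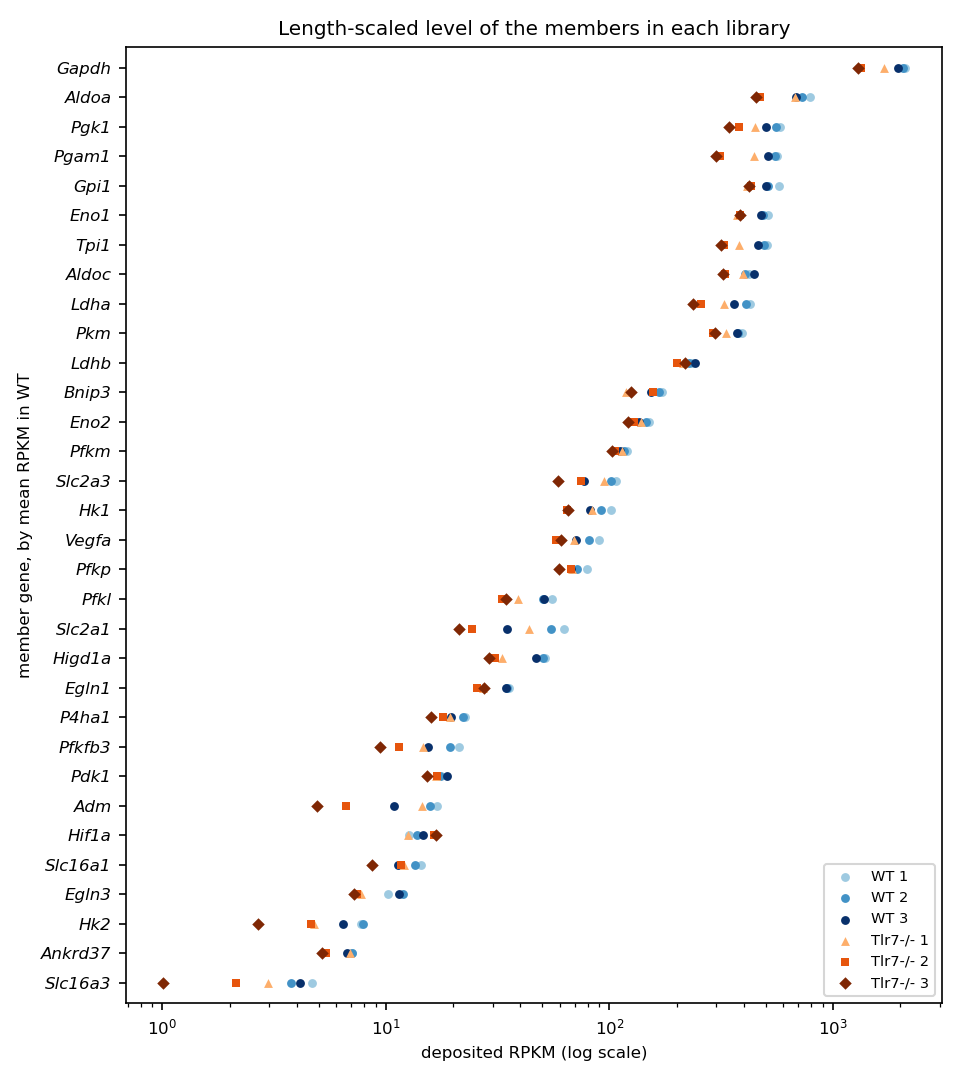
Deposited RPKM of each of the 32 members on a log axis, ordered by the mean of the 3 WT libraries, with 1 point for each library. Gapdh lies highest in every library and Slc16a3 lowest, and Hif1a of replicates 2 and 3 lies to the right of all its WT points.

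The members together took 2.18%, 2.08% and 1.96% of all counts in the WT libraries, listed by replicate number here and below. In the Tlr7-/- libraries they took 1.76%, 1.61% and 1.53%, so the genotypes did not overlap. Nearly all of this belonged to the 17 glycolytic enzymes, which took 1.86% ± 0.0877 of counts in WT and 1.47% ± 0.103 in Tlr7-/- (SD, n = 3 each). Over the 3 Tlr7-/- libraries against WT, 31 of the 32 members had a log2 fold change below 0, as did 49.9% of all genes tested. Hif1a was the exception. The median over the members was -0.32, against 0.0014 over all genes tested, and their range was -0.99 to 0.20. In 19 members all 3 Tlr7-/- libraries lay below all 3 WT libraries, which was so for 16.8% of all genes tested. With CPM scaled by edgeR's TMM factors, an alternative chosen after seeing the data, this held for 18 members and 16.2% of all genes, Aldoa no longer among them. In CPM no member lay wholly above.

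No gene passed the edgeR quasi-likelihood test at an adjusted p of 0.05 in this comparison (0 of 13947, 0.0%), and so no member did. Unadjusted p fell under 0.05 in 3932 genes, and DESeq2 called 1785 genes. Of the members, 21 were lower at that unadjusted p, against 12.6% of all genes. DESeq2 called 15 members lower and none higher, where it called 4.86% of all genes lower. Without Tlr7-/- replicate 1, edgeR called 6922 genes and 23 members. In replicate 1 against WT, edgeR called 3 members lower (Higd1a, Eno1 and Pfkl), against 0.545% of all genes lower, and no member higher, against 0.889% of all genes higher. Without WT replicate 1, or without WT replicate 2, none of these 3 calls remained. In replicates 2 and 3 against WT, 22 members fell, against 25.2% of all genes, and 1 member rose, against 24.4% of all genes. For replicate 1 the member median log2 fold change was -0.20 (trend-removed -0.18). For replicates 2 and 3 it was -0.40 (trend-removed -0.32). Because both comparisons use the same WT libraries, their values are given side by side and are not independent. For the 17 glycolytic enzymes alone, the median in replicates 2 and 3 was -0.42 (trend-removed -0.22). All 17 lay below 0 there, and 12 in the trend-removed fit, against 6999 and 6659 of the 13947 genes tested. Member transcripts had a median GC content of 51.9%, against 47.8% over all genes, and its part in these values was not tested.

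**Figure D2:**
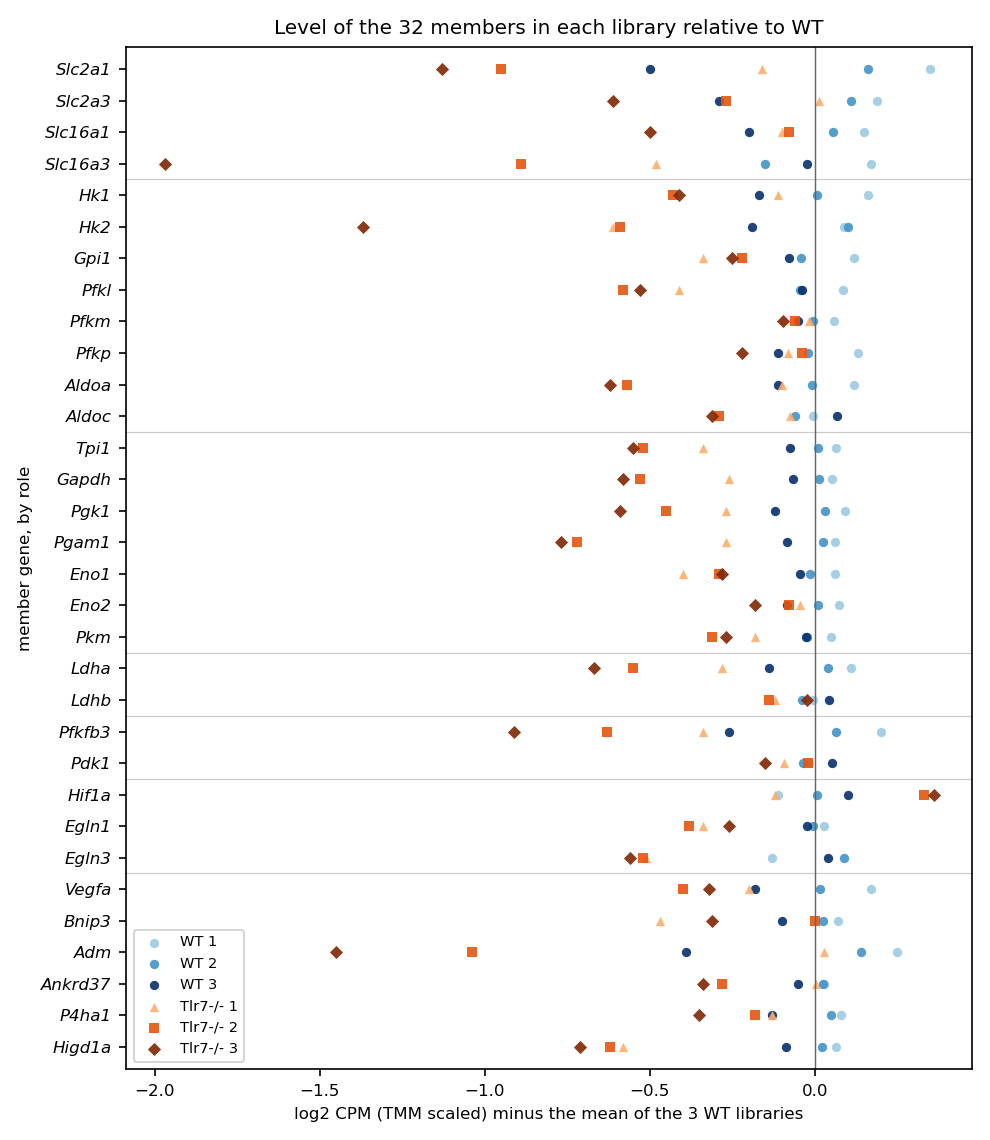
Log2 CPM, scaled by TMM factors, of each member in each library minus the mean of the 3 WT libraries, with members grouped by role and 1 point for each library. The median over the members was -0.19, -0.39 and -0.46 in Tlr7-/- replicates 1 to 3, and Hif1a in replicates 2 and 3 lies to the right of all WT points.

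Of the 4 transporters, 2 fell in replicates 2 and 3 (Slc2a1 and Slc16a3), against 25.2% of all genes, and none was called in replicate 1, against 0.545% of all genes. Slc2a1 encodes Glut1, the glucose transporter of astrocytes and of the blood-brain barrier. It stood at 234, 206 and 131 CPM in WT and at 164, 97.3 and 84.8 CPM in Tlr7-/- libraries. The genotypes overlapped, because WT replicate 3 lay below Tlr7-/- replicate 1. Slc2a1 did not pass the test in replicate 1 (log2 fold change -0.20 ± 0.36 SE, edgeR adjusted p = 0.846). It fell in replicates 2 and 3 (log2 fold change -1.08 ± 0.29, edgeR adjusted p = 0.041). This call was lost in the trend-removed fit (-0.93, edgeR adjusted p = 0.0837), without the low-count filter, and without Tlr7-/- replicate 2, Tlr7-/- replicate 3, WT replicate 1 or WT replicate 2. Slc2a3, the neuronal Glut3 gene, ran in parallel at a smaller size, with 505, 479 and 363 CPM in WT and 444, 377 and 293 CPM in Tlr7-/-. Its genotypes overlapped as well, and it was called in neither comparison (replicates 2 and 3, log2 fold change -0.44 ± 0.17, edgeR adjusted p = 0.085, trend-removed -0.70), except without WT replicate 3, when it was called in replicates 2 and 3 (-0.58).

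Slc16a3 encodes MCT4, a lactate exporter of glycolytic cells and of astrocytes in brain, and is itself a HIF target. It stood at 23.4, 18.8 and 20.5 CPM in WT and at 14.8, 11.5 and 5.33 CPM in Tlr7-/- libraries. All Tlr7-/- libraries lay below all WT libraries, and replicate 3 was the lowest by a wide margin. It had the lowest log2 fold change of the 32 members over all 3 libraries, -0.99 ± 0.33 (edgeR adjusted p = 0.134), which is 50.2% of the WT level. In replicates 2 and 3 it fell to 39.5% of WT (log2 fold change -1.34 ± 0.30, edgeR adjusted p = 0.0123), while the value in replicate 1 was -0.49 ± 0.36 (adjusted p = 0.591). Without WT replicate 3 that call was lost at a value of -1.36. Slc16a1, which encodes the widely expressed MCT1, overlapped between genotypes (53.3 to 67.8 CPM in WT, 43.5 to 59.3 CPM in Tlr7-/-) and was not called, although in replicates 2 and 3 it was called in the trend-removed fit (-0.56, edgeR adjusted p = 0.0378), without WT replicate 3 (-0.38) and without Tlr7-/- replicate 2 (-0.51).

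Among the enzymes from hexokinase to aldolase, 6 of 8 fell in replicates 2 and 3, against 25.2% of all genes, and 1 fell in replicate 1, against 0.545%. Hk2, the inducible and mitochondria-bound hexokinase gene, stood at 49.6, 50.2 and 40.9 CPM in WT and at 30.4, 31.7 and 18.1 CPM in Tlr7-/- libraries, with no overlap. Its log2 fold change was -0.61 ± 0.30 in replicate 1 (edgeR adjusted p = 0.415) and -0.94 ± 0.24 in replicates 2 and 3 (adjusted p = 0.023), a call that was lost without the low-count filter and without WT replicate 1 or 2. Without Tlr7-/- replicate 3 the value was -0.60, still called. Hk1, the main hexokinase gene of brain, fell in replicates 2 and 3 by a smaller amount (-0.42 ± 0.088, edgeR adjusted p = 0.00379, 74.5% of WT). Gpi1, the glucose-6-phosphate isomerase gene, stood at 1786, 1604 and 1563 CPM in WT and at 1293, 1442 and 1389 CPM in Tlr7-/- libraries. It was thus lowest in replicate 1, and its call in replicates 2 and 3 (-0.24 ± 0.068, edgeR adjusted p = 0.0157) was lost in the trend-removed fit (-0.11) and without Tlr7-/- replicate 3 (-0.23).

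The 3 phosphofructokinase genes, whose products form the enzyme that commits glucose to glycolysis, did not move together. Pfkl (ENSMUSG00000020277, minus strand of chr10:77986947-78010083), the liver-type subunit gene, stood at 225, 206 and 207 CPM in WT and at 159, 145 and 148 CPM in Tlr7-/- libraries. The 3 Tlr7-/- values lay close together and far below WT. Pfkl fell in replicate 1 (log2 fold change -0.41 ± 0.081, edgeR adjusted p = 0.0483, trend-removed -0.37) and in replicates 2 and 3 (-0.55 ± 0.064, adjusted p = 0.000134, trend-removed -0.34). Pfkm, the muscle-type subunit gene, overlapped between genotypes at 399 to 430 CPM in WT and 390 to 405 CPM in Tlr7-/-, and its log2 fold change of -0.079 ± 0.057 in replicates 2 and 3 became 0.11 in the trend-removed fit. Pfkp, the platelet-type subunit gene, also overlapped (333 to 393 CPM in WT and 311 to 358 CPM in Tlr7-/-). Its value in replicates 2 and 3 was -0.13 ± 0.083 and was called only in the trend-removed fit (-0.47, edgeR adjusted p = 0.00657). Exons of Pfkp and Pfkm overlap those of Pitrm1 and Senp1 on the opposite strand, which had 14% and 4.19% as many counts.

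Aldoa stood at 1940, 1787 and 1666 CPM in WT and at 1654, 1233 and 1178 CPM in Tlr7-/- libraries. Replicate 1 lay just under the lowest WT library in CPM and overlapped WT after TMM scaling, and replicates 2 and 3 lay well below it. Aldoa fell in replicates 2 and 3 (log2 fold change -0.60 ± 0.071, edgeR adjusted p = 0.000165), with a trend-removed value of -0.18 that kept its call (adjusted p = 0.0464). Aldoc, the brain aldolase gene that is strongest in astrocytes, stood at 1286 to 1403 CPM in WT and 1084 to 1260 CPM in Tlr7-/-. Its call in replicates 2 and 3 (-0.30 ± 0.058, edgeR adjusted p = 0.00238) was lost in the trend-removed fit (-0.14).

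In the later steps, from triose phosphate to pyruvate, 6 of 7 genes lay lower in every Tlr7-/- library than in every WT library, against 16.8% of all genes. The same 6 fell in replicates 2 and 3, against 25.2% of all genes. Gapdh stood at 4154, 4065 and 3843 CPM in WT and at 3335, 2837 and 2707 CPM in Tlr7-/- libraries. Replicate 1 gave a log2 fold change of -0.26 ± 0.074 (edgeR adjusted p = 0.138), and replicates 2 and 3 gave -0.56 ± 0.058 (adjusted p = 8.49e-05, trend-removed -0.42). Pgam1, the phosphoglycerate mutase gene of brain, stood at 1100, 1077 and 997 CPM in WT and at 867, 657 and 624 CPM in Tlr7-/- libraries. It fell to 59.7% of WT in replicates 2 and 3 (-0.74 ± 0.063, edgeR adjusted p = 2.96e-05, trend-removed -0.46), the smallest adjusted p of any member there. Pgk1, the X-linked phosphoglycerate kinase gene, stood at 1155, 1110 and 997 CPM in WT and at 894, 811 and 726 CPM in Tlr7-/- libraries. The Tlr7-/- libraries again lay below WT, and Pgk1 fell in replicates 2 and 3 (-0.52 ± 0.076, edgeR adjusted p = 0.000487, trend-removed -0.34).

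Tpi1, the triose phosphate isomerase gene, stood at 958, 926 and 871 CPM in WT and at 717, 655 and 628 CPM in Tlr7-/- libraries. All Tlr7-/- libraries lay below WT. In replicate 1 the log2 fold change was -0.34 ± 0.077 (edgeR adjusted p = 0.0675), and it was called there without WT replicate 3 (-0.38). Replicates 2 and 3 gave -0.54 ± 0.061 (edgeR adjusted p = 0.000121), and the trend-removed value of -0.22 kept its call. Eno1 (ENSMUSG00000063524, plus strand of chr4:150236721-150248879), the ubiquitous enolase gene, stood at 1580, 1507 and 1472 CPM in WT, at 1144 CPM in replicate 1 and at 1271 and 1258 CPM in replicates 2 and 3. Replicate 1 was the lowest library, although replicates 2 and 3 against replicate 1 gave 0.11 ± 0.075, which was not called (edgeR adjusted p = 0.285). Eno1 fell in replicate 1 (-0.40 ± 0.073, edgeR adjusted p = 0.0383), a call that just missed the threshold in the trend-removed fit (-0.30, adjusted p = 0.0511). Its fall in replicates 2 and 3 (-0.28 ± 0.056, edgeR adjusted p = 0.0026) turned to 0.094 in the trend-removed fit. Pkm, the pyruvate kinase gene of brain and muscle, gave -0.29 ± 0.055 in replicates 2 and 3 (edgeR adjusted p = 0.00197), which also turned, to 0.061. Eno2, the neuron-specific enolase gene, was the only one of these 7 that overlapped, with 508 to 566 CPM in WT and 479 to 521 CPM in Tlr7-/-, and it was called in no comparison.

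**Figure D3:**
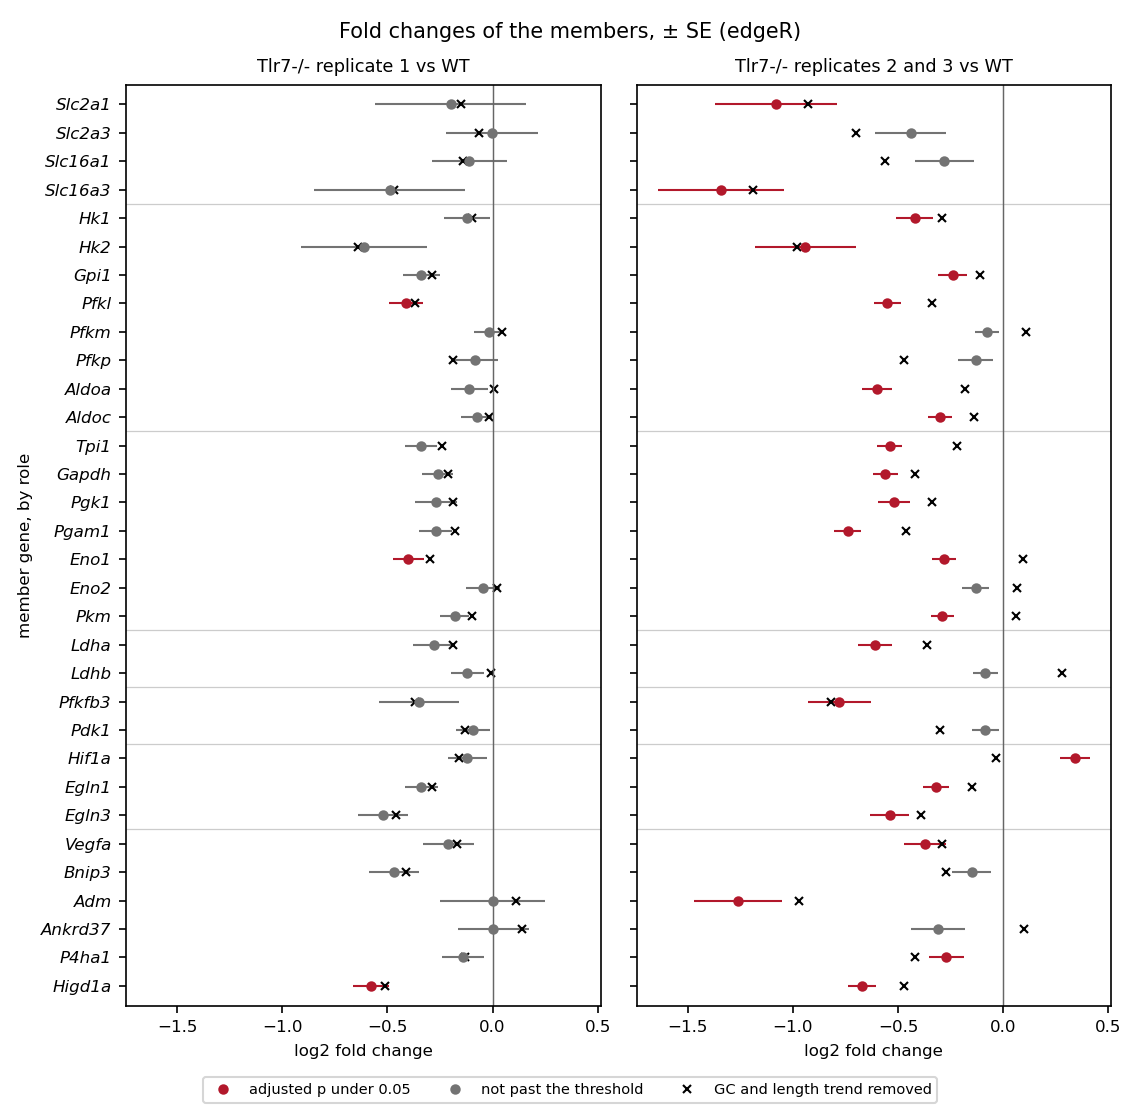
Log2 fold change of each member with its SE, in Tlr7-/- replicate 1 against WT on the left and in replicates 2 and 3 against WT on the right, with red points past an edgeR adjusted p of 0.05 and crosses for the trend-removed values. There are 3 red points on the left and 23 on the right, and on the right the crosses of Pfkm, Eno1, Eno2, Pkm, Ldhb and Ankrd37 lie above 0.

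Ldha and Ldhb encode the subunits of lactate dehydrogenase, the first favoured in glycolytic tissue and the second in oxidative tissue. Ldha stood at 1191, 1142 and 1005 CPM in WT and at 906, 773 and 701 CPM in Tlr7-/- libraries, with no overlap. Its log2 fold change was -0.28 ± 0.10 in replicate 1 (edgeR adjusted p = 0.224) and -0.61 ± 0.080 in replicates 2 and 3 (adjusted p = 0.000266, trend-removed -0.36). Ldhb stood at 390, 383 and 405 CPM in WT and at 358, 363 and 388 CPM in Tlr7-/- libraries, and the genotypes overlapped. It was not called in replicates 2 and 3 (-0.084 ± 0.060, edgeR adjusted p = 0.276), and its trend-removed value there was above 0 and called (0.28, adjusted p = 0.00962).

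Of the regulators, Pfkfb3 makes fructose 2,6-bisphosphate, an activator of phosphofructokinase, and is known to be more active in astrocytes than in neurons. It stood at 127, 116 and 92.4 CPM in WT and at 86.7, 73.0 and 59.4 CPM in Tlr7-/- libraries. The genotypes did not overlap, although WT replicate 3 lay close to Tlr7-/- replicate 1. Pfkfb3 fell in replicates 2 and 3 to 58.4% of WT (log2 fold change -0.78 ± 0.15, edgeR adjusted p = 0.00485), with a value of -0.35 ± 0.19 in replicate 1 (adjusted p = 0.43). Pdk1, a kinase gene whose product holds pyruvate back from mitochondria, overlapped between genotypes at 97.3 to 103 CPM in WT and 90.3 to 100 CPM in Tlr7-/-. Its value in replicates 2 and 3 was -0.084 ± 0.065 and was called only in the trend-removed fit (-0.30, edgeR adjusted p = 0.00534).

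Within the HIF pathway the factor and its hydroxylases ran in opposite directions in replicates 2 and 3. Hif1a stood at 74.0, 80.4 and 85.6 CPM in WT, at 73.0 CPM in Tlr7-/- replicate 1 and at 102 and 103 CPM in replicates 2 and 3. Replicate 1 lay just below the lowest WT library, and replicates 2 and 3 lay above all WT libraries. Hif1a rose in replicates 2 and 3 (log2 fold change 0.34 ± 0.071, edgeR adjusted p = 0.00341), and the trend-removed value there was -0.033 (adjusted p = 0.706). Its transcript has 41.34% G and C, the lowest of the members. Egln3, the most strongly HIF-inducible prolyl hydroxylase gene, stood at 29.0, 33.9 and 32.7 CPM in WT and at 22.1, 22.6 and 21.6 CPM in Tlr7-/- libraries. The 3 Tlr7-/- values nearly coincided, and Egln3 was as low in replicate 1 (-0.52 ± 0.12, edgeR adjusted p = 0.0675) as in replicates 2 and 3 (-0.54 ± 0.091, adjusted p = 0.000986). Egln1, the main oxygen sensor among the prolyl hydroxylases, stood at 132 to 136 CPM in WT and 105 to 112 CPM in Tlr7-/-. Its call in replicates 2 and 3 (-0.32 ± 0.061, edgeR adjusted p = 0.00236) was lost in the trend-removed fit (-0.15), while replicate 1 gave -0.34 ± 0.079 (adjusted p = 0.0741) and a trend-removed -0.29.

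Of the HIF targets outside glycolysis, 4 of 6 fell in replicates 2 and 3, against 25.2% of all genes, and Higd1a fell in both comparisons. Higd1a (ENSMUSG00000038412, minus strand of chr9:121848563-121858362) encodes an inner-membrane protein of mitochondria that is induced by hypoxia. It stood at 168, 164 and 152 CPM in WT and at 107, 107 and 99.2 CPM in Tlr7-/- libraries. The 3 Tlr7-/- values nearly coincided at 64.2% of WT. Its log2 fold change was -0.58 ± 0.086 in replicate 1 (edgeR adjusted p = 0.0228, trend-removed -0.51) and -0.67 ± 0.067 in replicates 2 and 3 (adjusted p = 6.88e-05, trend-removed -0.47). Vegfa, the endothelial growth factor gene, stood at 338, 305 and 265 CPM in WT and at 260, 233 and 242 CPM in Tlr7-/- libraries. Replicate 1 lay just below WT replicate 3, and Vegfa fell in replicates 2 and 3 (-0.37 ± 0.10, edgeR adjusted p = 0.0116), a call that was lost without Tlr7-/- replicate 2 (-0.32). Adm, the gene of the vasodilator peptide adrenomedullin, stood at 25.1, 23.5 and 16.2 CPM in WT, at 21.4 CPM in Tlr7-/- replicate 1 and at 10.5 and 7.79 CPM in replicates 2 and 3. Replicate 1 lay inside the WT range (0.0016 ± 0.25, edgeR adjusted p = 0.999) and replicates 2 and 3 lay below it, at 41.7% of WT (-1.26 ± 0.21, adjusted p = 0.00186).

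Bnip3, which encodes a mitophagy receptor, stood at 340, 331 and 304 CPM in WT and at 233, 331 and 263 CPM in Tlr7-/- libraries, so replicate 2 lay at the WT level and replicate 1 was the lowest of the 6. Its log2 fold change was -0.47 ± 0.12 in replicate 1 (edgeR adjusted p = 0.11) and -0.15 ± 0.094 in replicates 2 and 3 (adjusted p = 0.212), with a trend-removed -0.27 that was called there. The latter value was -0.31 and called without Tlr7-/- replicate 2 (edgeR adjusted p = 0.0151), and -0.0026 without Tlr7-/- replicate 3. Replicates 2 and 3 against replicate 1 gave 0.32 ± 0.13, which was not called (edgeR adjusted p = 0.089). P4ha1, a collagen prolyl hydroxylase gene, fell in replicates 2 and 3 (-0.27 ± 0.083, edgeR adjusted p = 0.0235, trend-removed -0.42). That call was lost without WT replicate 1, WT replicate 2 or Tlr7-/- replicate 3. Ankrd37, a small ankyrin-repeat gene, had 6.62 to 6.98 CPM in WT and 5.45 to 6.81 CPM in Tlr7-/- and was not called. Its exons overlap Ufsp2 and Lrp2bp on the opposite strand, which held 795% as many counts, so its value is uncertain.

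Replicates 2 and 3 were compared with replicate 1 directly. Of the 32 members, 6 differed by the edgeR test, a lower share than the 31.6% of all genes in either direction. Of these, 5 were lower in replicates 2 and 3 (Pgam1, Aldoa, Adm, Gapdh and Ldha), near the 16.6% of all genes lower, and Hif1a was higher. Among these 6, Adm had the widest difference (log2 -1.26 ± 0.27, edgeR adjusted p = 0.0102), followed by Aldoa (-0.49 ± 0.093, adjusted p = 0.00466) and Pgam1 (-0.47 ± 0.081, adjusted p = 0.00293). Hif1a differed by 0.46 ± 0.10 (edgeR adjusted p = 0.00782). Only Adm and Pgam1 kept their calls in the trend-removed fit (-1.08 and -0.28), in which Eno1 and Ldhb were instead called higher (0.40 and 0.29). More members were called without WT replicate 3 and fewer without WT replicate 2, when Gapdh and Ldha were not called. The share of all genes called in these fits is not given here, so the change cannot be set against it. Ldha and Adm were not called without Tlr7-/- replicate 3. Slc2a1 (-0.88 ± 0.37) and Slc16a3 (-0.85 ± 0.39) had larger differences than the called members apart from Adm but were not called. For Higd1a, Egln3, Egln1 and Pfkl the difference between both parts of the Tlr7-/- group was between -0.14 and 0.02 and was not called, with SE of 0.082 to 0.12.

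The WT libraries themselves differed in these genes. WT replicate 1 was the highest of the 3 in 26 members (81.2%) and WT replicate 3 the lowest in 25 (78.1%), against 35.2% and 36.8% of all genes tested. The median log2 range among WT libraries was 0.20 in the members and 0.17 in all genes. Slc2a1 had the widest range (0.85), followed by Adm (0.64), Slc2a3 (0.48) and Pfkfb3 (0.46), all with replicate 1 highest and replicate 3 lowest. With WT replicate 3 left out, the member median against WT was -0.29 for Tlr7-/- replicate 1 and -0.48 for the other two. With WT replicate 1 left out, these medians were -0.16 and -0.32.

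Isozyme make-up was read as the share of one gene in the summed RPKM of its paralogs, which does not depend on a factor common to a whole library. No test was made, since these shares rest on the members' own levels. The share of Pfkl among the 3 phosphofructokinase genes was 21.7% ± 0.413 in WT and 17.1% ± 0.87 in Tlr7-/- (SD, n = 3), and that of Pfkm was 48.2% ± 0.824 and 51.7% ± 0.572, in both cases with no overlap. The share of Pfkp overlapped, at 30.1% ± 0.945 and 31.2% ± 1.29. Eno2 took 22.8%, 22.9% and 22.1% of both enolases in WT and 27.1%, 25.3% and 23.9% in Tlr7-/- libraries, so every Tlr7-/- share was the higher. Slc16a3 took 24.4% ± 2.43 of both monocarboxylate transporters in WT and 15.2% ± 4.74 in Tlr7-/-. Hk2 took 7.42% ± 0.414 of both hexokinases in WT and 5.33% ± 1.37 in Tlr7-/-, again without overlap. Ldhb took 37.2% ± 2.67 of both lactate dehydrogenase genes in WT and 43.9% ± 4.16 in Tlr7-/-, and Slc2a3 took 65.7% ± 2.9 and 72.4% ± 3.68 of both glucose transporters. In the last pair of shares, and in that of Aldoc, WT replicate 3 lay above Tlr7-/- replicate 1, so the genotypes overlapped. These shares carry the dependence on GC content and length. In the trend-removed fit of replicates 2 and 3, Eno1 and Eno2 had nearly the same log2 fold change (0.094 and 0.068), as did Aldoa and Aldoc (-0.18 and -0.14). There Pfkl (-0.34) lay above Pfkp (-0.47) and below Pfkm (0.11), Hk2 (-0.98) below Hk1 (-0.29), Slc16a3 (-1.19) below Slc16a1 (-0.56), Ldha (-0.36) below Ldhb (0.28), and Slc2a1 (-0.93) below Slc2a3 (-0.70).

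**Figure D4:**
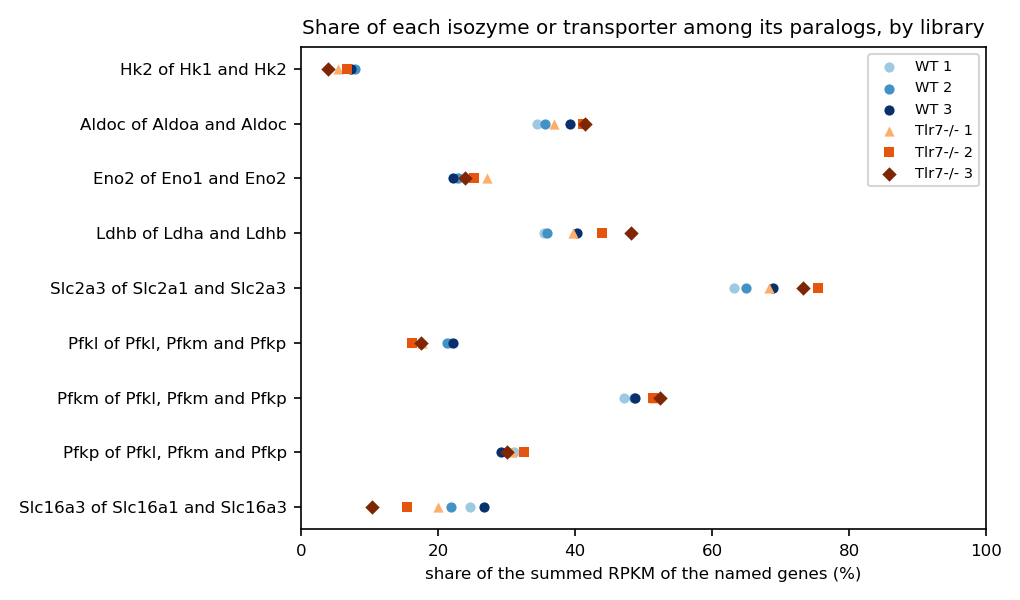
Share of each named gene in the summed RPKM of its paralogs, in percent, with 1 point for each library. The Pfkl, Hk2 and Slc16a3 shares of all Tlr7-/- libraries lie to the left of all WT libraries, and the Pfkm and Eno2 shares lie to the right.

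Genes close to the members in function were read from further lists. Of 16 tested enzymes and regulators of glycolysis outside the 32, such as liver and testis isozymes and bisphosphatases, 3 fell and 2 rose in replicates 2 and 3, against 25.2% and 24.4% of all genes. None was called in replicate 1, against 0.545% of all genes lower and 0.889% higher. Their median log2 fold change over all 3 Tlr7-/- libraries was 0.0078. Bpgm, which makes 2,3-bisphosphoglycerate, fell in replicates 2 and 3 (-0.29 ± 0.070, edgeR adjusted p = 0.00679, trend-removed -0.16), as did Adpgk, an ADP-dependent glucokinase gene (-0.52 ± 0.11, adjusted p = 0.00413). Pfkfb2, a relative of Pfkfb3, rose there (0.59 ± 0.081, edgeR adjusted p = 0.00033), with 28.5 to 31.9 CPM in WT, 29.5 CPM in replicate 1 and 49.2 and 44.0 CPM in replicates 2 and 3.

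Of 30 tested hypoxia-inducible genes outside the 32, 13 fell and 4 rose in replicates 2 and 3, against 25.2% and 24.4% of all genes. None was called in replicate 1, against 0.545% of all genes lower and 0.889% higher. The median over all 3 Tlr7-/- libraries was -0.26. Ndufa4l2, a HIF-induced brake on respiratory complex I, stood at 1.87, 2.14 and 2.36 CPM in WT and at 0.665, 0.730 and 0.779 CPM in Tlr7-/- libraries. All Tlr7-/- values lay far below WT, and it fell in replicates 2 and 3 (log2 fold change -1.50 ± 0.29, edgeR adjusted p = 0.00228, trend-removed -0.65), with -1.65 ± 0.38 in replicate 1 (adjusted p = 0.074). Fam162a, a HIF target of mitochondria, fell in replicates 2 and 3 (-1.03 ± 0.13, edgeR adjusted p = 0.000446, trend-removed -0.73), and Jmjd6, a hydroxylase gene, fell by 0.60 on the log2 scale (adjusted p = 0.000913).

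Of 16 tested HIF subunits and regulators, 4 fell and 5 rose in replicates 2 and 3, near the 25.2% and 24.4% of all genes. In replicate 1, 1 of them rose, against 0.889% of all genes. That gene was Epas1, which encodes HIF-2 alpha and is strong in endothelium and astrocytes. It stood at 65.6, 57.4 and 64.9 CPM in WT and at 111, 71.4 and 81.9 CPM in Tlr7-/- libraries, all above WT, with a log2 fold change of 0.84 ± 0.11 in replicate 1 (edgeR adjusted p = 0.0141). The coactivator genes Ep300 and Crebbp rose in replicates 2 and 3 (0.55 ± 0.068 and 0.60 ± 0.093, edgeR adjusted p = 0.000203 and 0.000664, trend-removed 0.30 and 0.34). Vhl, which encodes the ligase subunit that recognises hydroxylated HIF alpha, fell there (-0.36 ± 0.063, edgeR adjusted p = 0.00127). Among 12 further tested glucose and monocarboxylate transporter genes, 3 fell and 3 rose in replicates 2 and 3, near the same shares of all genes. Bsg, whose product escorts MCT1 and MCT4 to the membrane, fell there (-0.66 ± 0.10, edgeR adjusted p = 0.000627, trend-removed -0.20). Slc16a7, the neuronal MCT2 gene, rose (1.02 ± 0.10, edgeR adjusted p = 7.8e-05), with a trend-removed value of 0.094.

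Markers of the cell types that such cultures can hold were summed beside these results. Neuronal markers (13 of 13 detected) summed to 8168 to 8431 CPM in WT and 7902 to 8552 CPM in Tlr7-/-, so the ranges overlapped. Of these 13, 6 lay wholly below WT and 3 wholly above, against 16.8% and 2216 of the 13947 genes tested. Astrocyte markers (13 of 13) summed to 5274 to 5549 CPM in WT, to 4798 CPM in Tlr7-/- replicate 1 and to 6261 and 5795 CPM in replicates 2 and 3, so the first lay below WT and the others above it. In replicate 1, 10 of the 13 astrocyte markers had a log2 fold change below 0, against 7082 of the 13947 genes tested. In replicates 2 and 3, 4 of the 13 were called lower and 4 higher, near the 25.2% and 24.4% of all genes. Markers of the oligodendrocyte lineage (12 of 12) summed to 1536 to 1597 CPM in WT and 930 to 1130 CPM in Tlr7-/-, with no overlap. Of 11 tested, 8 lay wholly below WT, as did 19 of the 32 members, against 16.8% of all genes. The part of all these markers in the members' values was not tested. Microglial markers (9 of 9) summed to only 17.4 to 26.4 CPM in WT and 18.2 to 36.7 CPM in Tlr7-/-. Of the endothelial markers, Cdh5 had no count in any library and Cldn5 a single count in all 6, and the sum of 102 to 141 CPM came mostly from Slco1c1, which astrocytes also express. Mural and meningeal markers summed to 24.9 to 28.7 CPM in WT and 22.8 to 39.8 CPM in Tlr7-/-.

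A second deposited table holds the authors' own edgeR comparison. In the authors' deposited table, 8 members had a false discovery rate under 0.05 and all were lower (Higd1a, Hk2, Pgam1, Pfkl, Egln3, Tpi1, Pfkfb3 and Slc16a3), against 0.649% of its 27420 genes lower. That share is over every gene listed there, and not over the 13947 genes tested here, of which 13784 are listed. The sign of that table was read as Tlr7-/- relative to WT, since it matched the fold changes computed here in 100% of the 373 genes under that rate that were tested here. Levels in both tables were close for most members but not for Gapdh. The authors' deposited table lists a mean log2 CPM of 3.61 for Gapdh, against 11.77 from the deposited counts, and a log2 fold change of -0.11 against -0.45. The log2 level in the authors' deposited table minus that in the count table was -2.13 for Pgam1, -1.42 for Bnip3, -0.98 for Pgk1 and -0.87 for Eno1, where the median over 13784 genes was 0.13. These 5 members are among the 10 that have at least 1 near-identical transcript annotated elsewhere, such as a processed pseudogene, with 43 for Gapdh, 4 each for Pgk1 and Bnip3, 3 for Eno1 and 1 for Pgam1. Of the rest of these 10, Ldha, with 3 such copies, lay at 0.024. Tpi1 and Ldhb (-0.11 each), Gpi1 (-0.23) and Pkm (-0.42) have 1 copy each. The 22 members without such a copy lay between -0.40 and 0.46 in the same comparison with the authors' deposited table. How each table treated reads that fit several places is not given in the sources used here, and its part in the difference was not tested.

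**Figure D5:**
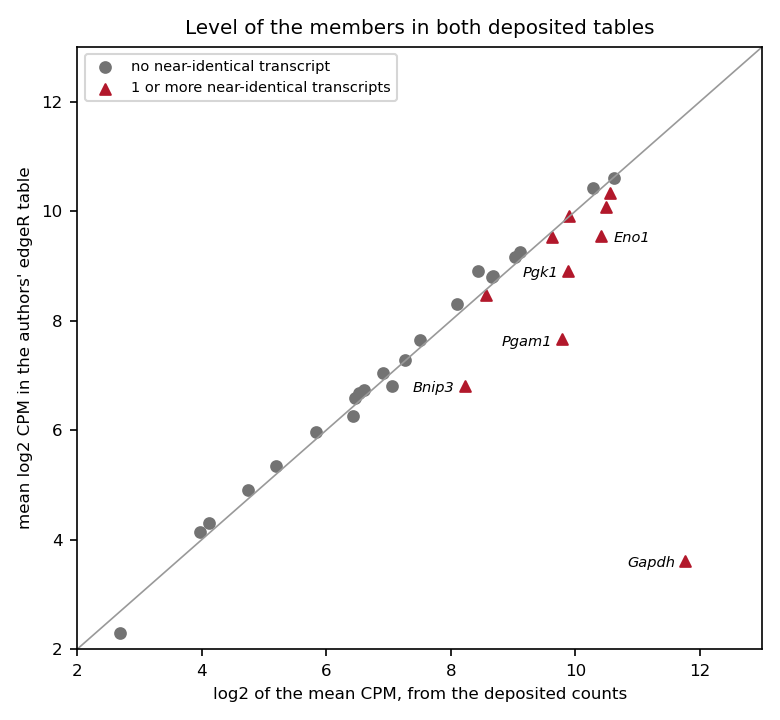
Mean log2 CPM of each member in the authors' deposited edgeR table against the log2 of its mean CPM in the deposited counts, with the line of equal values. Triangles mark the 10 members with near-identical transcripts, and Gapdh lies at 3.61 against 11.77. The 22 circles lie near the line, as do the triangles of Ldha, Tpi1 and Ldhb.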

How the data were processed

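Total counts per gene, RPKM and TPM for 3 WT and 3 Tlr7-/- libraries were deposited by the authors, per the file headers; TPM was not used. The authors also deposited the output of their own edgeR run, giving for each gene a log2 fold change, a mean log2 CPM, a p-value and an FDR. The submitters' processing notes name bcl2fastq, HISAT2, featureCounts and edgeR with build GRCm38.p6, and their roles and versions are not given in the sources used here. Reads were counted per gene from a stranded kit, and whether strand was used is not stated.

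Members were matched by name, and Aldoa by identifier. The members and all lists were chosen with earlier results of these data known. From the counts, CPM were computed, and edgeR 4.0.16 (R 4.3.3; TMM, filterByExpr, robust quasi-likelihood test) was fitted to all genes passing the filter, with Benjamini-Hochberg adjustment and a threshold of 0.05. A fit with 3 groups (WT, Tlr7-/- replicate 1, Tlr7-/- replicates 2 and 3) gave the separate comparisons. Errors beside log2 fold changes are SE. GC content and length came from GENCODE M21 (value for 99.9% of genes), with natural splines of 5 degrees of freedom as offsets. DESeq2 1.42.0 and limma 3.58.1 on log2(RPKM + 0.5) were alternatives. Near-identical transcripts were found with blastn 2.17.0 (at least 95% identity over 300 bases). Named genes were all members and, of each other list, up to 4 with the smallest p. The fits were tested on simulated data. Total counts were 23272450 to 25696625 per library. Precision is limited by 3 libraries a group and, for the members with the fewest counts, also by depth.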

Additional observations from a re-analysis of the deposited data

How the results depend on the processing

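With all 3 Tlr7-/- libraries against WT, the number of genes called was 1785 by DESeq2, 1 without the low-count filter and 1 in the trend-removed fit, and members called were 15 by DESeq2. Leaving out 1 library gave 0 to 6922 genes and 0 to 23 members, the highest values being without Tlr7-/- replicate 1. Same-numbered libraries deviated together weakly for numbers 1 and 3 (correlations 0.215 and 0.216) and not for number 2 (-0.122). Pairs with unlike numbers gave -0.254 to 0.146. With the replicate number as a block (replicate block) 0 genes and 0 members were called with a member median of -0.32. For replicate 1, DESeq2 called 444 genes and 10 members and the unfiltered table gave 353 genes and 5 members, while leaving out 1 WT library gave 18 to 346 genes, 0 to 4 members and medians of -0.29 to -0.16. For replicates 2 and 3 the trend-removed fit called 4563 genes, and leaving out 1 library moved the member median between -0.48 and -0.32. For replicates 2 and 3 against replicate 1, where all alternatives were chosen after seeing the data, DESeq2 called 11 members, the trend-removed fit called 2653 genes and leaving out 1 library gave 4 to 12 members. The main fit of that comparison called 31.6% of all genes. The shares under DESeq2 and with 1 library left out are not given here, so these member counts cannot be set against them. In the trend-removed fit the sign turned over all libraries for Pfkm (0.087), Eno2 (0.053), Pkm (0.0093), Ldhb (0.19), Hif1a (-0.074) and Ankrd37 (0.11). It turned in replicate 1 for Pfkm (0.046), Aldoa (0.0062) and Eno2 (0.021). In replicates 2 and 3 it turned for Pfkm (0.11), Eno1 (0.094), Eno2 (0.068), Pkm (0.061), Ldhb (0.28), Hif1a (-0.033) and Ankrd37 (0.099). In replicate 1, values close to 0 also turned for Slc2a3 (0.0014 by DESeq2 and by its size factors), for Adm (-0.012 by library size alone, -0.0061 with at least 50 counts) and for Ankrd37 (-0.0099 and -0.0036). Leaving out 1 WT library there gave -0.13 to 0.093 for Slc2a3, -0.044 to 0.011 for Pfkm, -0.17 to 0.13 for Adm and -0.021 to 0.017 for Ankrd37. The causes were not tested. Precision is limited by 3 libraries a group and a single library in replicate 1, and for the members with the fewest counts also by depth.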

Other observations

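Glucose also feeds the pentose phosphate pathway, glycogen and the mitochondria, and the counts below for replicates 2 and 3 stand beside 25.2% of all genes lower and 24.4% higher. Of 9 tested pentose phosphate genes, 3 fell in replicates 2 and 3 and none rose. Pgls, the lactonase gene, stood at 37.1, 40.2 and 38.7 CPM in WT and at 33.4, 17.8 and 17.5 CPM in Tlr7-/- libraries, so replicates 2 and 3 were near each other and far below replicate 1 (log2 fold change -1.15 ± 0.079 against WT, edgeR adjusted p = 1.31e-05, trend-removed -0.84). Taldo1 and Tkt, of the branch that makes no NADPH, gave -0.52 ± 0.070 and -0.39 ± 0.073 there (edgeR adjusted p = 0.000295 and 0.00188). Of 13 tested glycogen genes, 3 fell and 3 rose. Gys1, the glycogen synthase gene, stood at 86.9, 84.5 and 78.5 CPM in WT and at 59.3, 51.7 and 44.7 CPM in Tlr7-/- libraries, all lower, and fell in replicates 2 and 3 (-0.81 ± 0.080, edgeR adjusted p = 6.41e-05) with -0.48 ± 0.10 in replicate 1 (adjusted p = 0.0578).

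Of 13 tested genes of pyruvate entry into mitochondria, 6 fell and 2 rose in replicates 2 and 3. Mpc1 and Mpc2 encode both subunits of the mitochondrial pyruvate carrier. Mpc2 stood at 69.0, 67.4 and 65.5 CPM in WT and at 59.5, 35.5 and 36.7 CPM in Tlr7-/- libraries, and fell in replicates 2 and 3 (-0.92 ± 0.068, edgeR adjusted p = 1.88e-05, trend-removed -1.15). Mpc1 fell there by a smaller amount (-0.33 ± 0.066, edgeR adjusted p = 0.00271, trend-removed -0.062). Of 10 tested genes of the NADH shuttles, which carry reducing equivalents into mitochondria, 4 fell and 1 rose. Gpd2, the mitochondrial glycerol-3-phosphate dehydrogenase gene, was the one that rose, with 90.3 to 96.0 CPM in WT and 117 to 138 CPM in Tlr7-/- libraries (0.49 ± 0.066, edgeR adjusted p = 0.000326, trend-removed 0.23). No gene of these 4 lists was called in replicate 1, against 0.545% of all genes lower and 0.889% higher.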
